A study of Mus musculus with 6 samples.

Results

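Exo1 and 6 mismatch repair genes, Mlh3, Pms2, Msh3, Msh6, Msh4 and Msh5, were followed in whole testes of mice of 3 inbred strains, 8 weeks old, for which the labels give no treatment. The strains were MRL/MpJ (MRL/MpJ+/+ in full), AKR/N and C57BL/6, with 2 oligonucleotide arrays each. The labels call the arrays of a strain replicates 1 and 2, and each was taken as 1 mouse. The arrays held 45101 probe sets, and the genes were read through all 15 of them whose platform annotation gives one of these 7 symbols alone. Of these, 12 passed the filter on dim probe sets and were tested, with at least 1 for each gene. The strain comparison bears on Exo1 because it is a candidate in the literature for the heat resistance of MRL/MpJ spermatocytes, although the labels give no heat treatment for these samples.

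Mismatch repair corrects errors of DNA replication. MutS proteins find the mismatch, MutL proteins join them and nick the new strand, and the exonuclease Exo1 removes it so that a polymerase can fill the gap. In meiosis a variant of the same machinery works without mismatches: Msh4 and Msh5 stabilise recombination intermediates, and Mlh3 acts in turning them into crossovers. Mice that lack Msh4, Msh5, Mlh3 or Exo1 are known to have defects of male meiosis.

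Values are probe set intensities in linear units with the same trimmed mean on each array. Differences are of log2(intensity + 16) with their standard error (SE), and p-values are limma's after Benjamini-Hochberg adjustment over all 29692 probe sets tested. "Called" means an adjusted p under 0.05. The 2 arrays of a strain correlated at 0.98 to 0.985 over the tested probe sets, and arrays of different strains at 0.96 to 0.974. All 16 spermatocyte, 12 round spermatid and 11 elongating spermatid markers listed passed the filter on dim probe sets. In a whole testis, fewer cells of a type and less RNA per cell cannot be told apart. All p-values rest on 2 arrays per strain, and an exact permutation test of 2 against 2 cannot go below 0.333.

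The stretches before the gene starts of Msh5 and Msh4 are shown because these genes encode the 2 partners of one meiotic complex. Msh5 holds the call against C57BL/6, only on the dimmer of its probe sets, and Msh4 does not. RefSeq gave windows for 6 of the 7 genes, and none for Exo1. Each is the 250 bases before the annotated start, from the C57BL/6J reference GRCm38.p6, written 5′ to 3′. Those of Msh5 and Msh4 lie on the minus strand. Capitals mark matches, on either strand, to the CCAAT box (letters CCAAT), the GC box (letters GGGCGG), the TATA box (letters TATAAA), a cAMP response element core (letters TGACG), the NRF1 motif, the E2F motif (letters TTNGCGC) and the MYB motif (letters AACNGTT).
Msh5, chr17:35046623-35046872: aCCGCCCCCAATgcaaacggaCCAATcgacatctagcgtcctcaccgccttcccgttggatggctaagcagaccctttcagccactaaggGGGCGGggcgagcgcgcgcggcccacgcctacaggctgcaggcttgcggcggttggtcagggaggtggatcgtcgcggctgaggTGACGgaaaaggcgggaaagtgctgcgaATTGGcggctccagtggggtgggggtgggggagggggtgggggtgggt
Msh4, chr3:153904892-153905141: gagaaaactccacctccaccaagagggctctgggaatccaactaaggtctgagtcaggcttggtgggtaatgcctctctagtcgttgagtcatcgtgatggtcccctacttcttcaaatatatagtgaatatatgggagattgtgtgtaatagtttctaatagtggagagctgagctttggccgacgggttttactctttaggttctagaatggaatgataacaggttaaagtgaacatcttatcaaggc

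The Msh5 window is 67.2% G and C and holds 3 CCAAT boxes, 2 GC boxes and 1 TGACG, none of which overlap. The Pms2 window, of a gene with no call, holds the same number of each. CCAAT is in 5 of the 7 windows of these 6 genes, among them overlapping Mlh3 windows that hold the same CCAAT. The Msh4 window is 43.6% G and C and holds none of the 7 motifs, and the median over all 32851 windows was 52.4%. In all windows, 33.8% held CCAAT, 32.7% the GC box, 17.8% TGACG, 12.4% TATAAA, 5.19% the E2F motif, 3.8% the MYB motif and 3.74% the NRF1 motif. These matches describe the reference sequence, and sequences of MRL/MpJ and AKR/N were not used here.

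Exo1, the exonuclease, had its lowest signal in MRL/MpJ on both tested probe sets, the dimmer of which lay near the filter level there. It was called lower than in AKR/N on the brighter one. On probe set 1418026_at it stood at 37.6 and 40.4 units in MRL/MpJ, at 86.9 and 83.5 units in AKR/N, and at 74.6 and 54.8 units in C57BL/6. Both MRL/MpJ arrays lay below all arrays of the other strains, and AKR/N lay above C57BL/6 without overlap. The means were 39.0 ± 1.98 units in MRL/MpJ against 85.2 ± 2.42 units in AKR/N (SD, n = 2 each), a log2 difference of -0.88 (SE 0.167, adjusted p = 0.0108). Against C57BL/6, at 64.7 ± 14 units, MRL/MpJ differed by -0.54 (SE 0.167, 95% interval -0.91 to -0.17, adjusted p = 0.0683), which missed the threshold. AKR/N and C57BL/6 differed by 0.34 (95% interval -0.03 to 0.71, adjusted p = 0.255).

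The other tested Exo1 probe set, 1418027_at, was dimmer. It read 18.9 and 13.8 units in MRL/MpJ, 28.7 and 51.8 units in AKR/N, and 31.6 and 38.6 units in C57BL/6. Again both MRL/MpJ arrays were below all others, while AKR/N and C57BL/6 overlapped. The MRL/MpJ readings lay near or under the 40th percentile of the arrays (17.8 to 20.8 units). The probe set thus passed the filter through its AKR/N and C57BL/6 arrays, and its low MRL/MpJ signal is not independent support. MRL/MpJ differed by -0.77 from AKR/N (SE 0.249, adjusted p = 0.0987) and by -0.66 from C57BL/6 (SE 0.249, adjusted p = 0.129), so neither difference was called. The 95% interval against C57BL/6 was -1.21 to -0.11. The annotation gives both Exo1 probe sets the same source sequence, and they read the same samples, so they are not separate evidence. A further Exo1 probe set, 1430225_at, lay at 1.05 to 10.3 units, below the 40th percentile on each array (17.8 to 20.8 units), and was not tested.

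The call on Exo1 against AKR/N was lost when any of the 4 arrays compared was left out. Its adjusted p became 0.0677 and 0.0536 when MRL/MpJ replicates 1 and 2 were left out in turn, and 0.083 and 0.0781 when AKR/N replicates 1 and 2 were, with differences between -0.92 and -0.84. Leaving out C57BL/6 replicate 2, the lower C57BL/6 array, made MRL/MpJ called lower than C57BL/6 (-0.72, adjusted p = 0.0467), while leaving out C57BL/6 replicate 1 gave -0.36 (adjusted p = 0.262). At these intensities the size of the difference follows the pseudocount: for 1418026_at against AKR/N it was -1.11 with a pseudocount of 1 and -0.54 with 64.

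**Figure D1:**
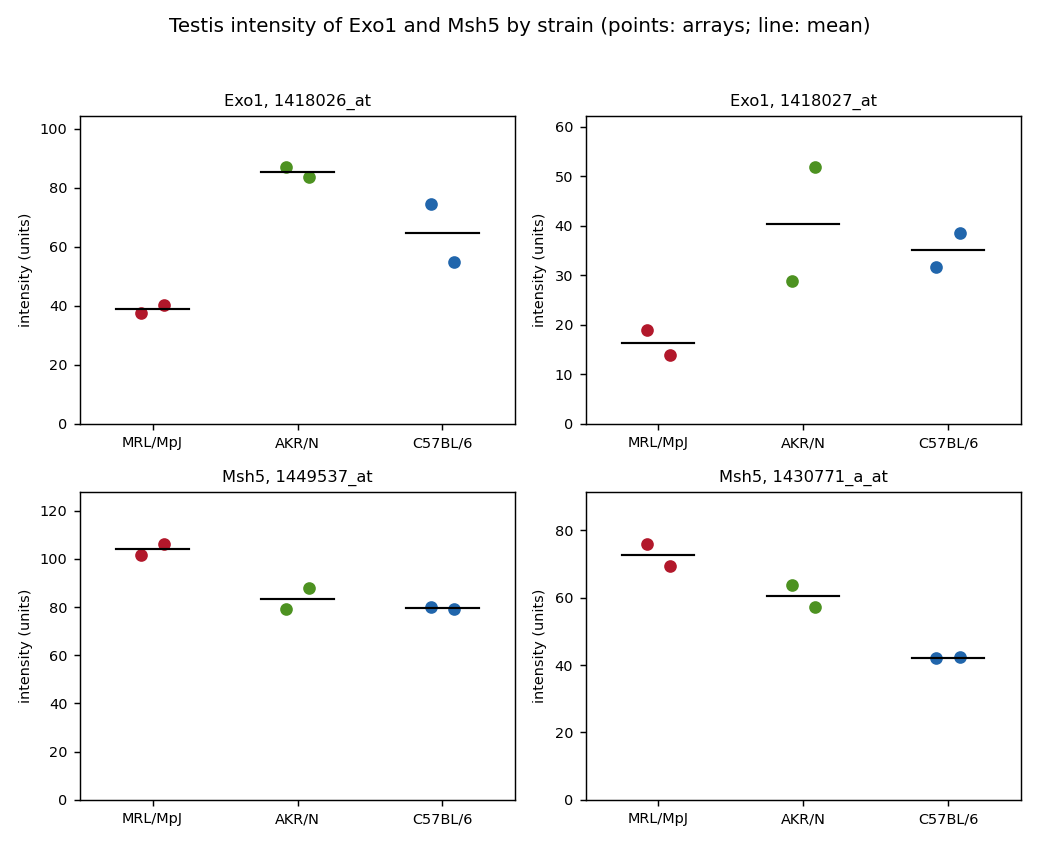
Intensity in linear units (y axis, from 0) of the tested probe sets of Exo1 and Msh5 by strain (x axis). Points are single arrays and lines are strain means (n = 2). Both MRL/MpJ points lie below all others for both Exo1 probe sets, 37.6 and 40.4 units on 1418026_at, and above all others for both Msh5 probe sets.

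Like Exo1, round spermatid markers had their lowest summed signal in MRL/MpJ, without overlap with the other strains. In AKR/N against C57BL/6 none of the 12 was called and their median was 0.0418. Exo1 on 1418026_at differed by 0.34 there, also uncalled. In MRL/MpJ, 7 of 12 such markers were lower than in C57BL/6 and 8 of 12 lower than in AKR/N, with none higher, and medians of -0.297 and -0.354. Their summed signal was 13780 and 14116 units in MRL/MpJ, 17174 and 17640 units in AKR/N, and 17545 and 16059 units in C57BL/6. Spermatocyte markers did not share that order: 3 of 16 were higher and 1 lower in MRL/MpJ against C57BL/6, and 6 were higher and none lower against AKR/N. In AKR/N against C57BL/6, 1 of them was higher and 3 were lower. Of 11 elongating spermatid markers, 2 were called lower in MRL/MpJ than in C57BL/6 and 1 lower than in AKR/N, with none higher. Their summed signal was 60437 and 66540 units in MRL/MpJ, 63732 and 67578 units in AKR/N, and 68335 and 74040 units in C57BL/6. The lowest array was again of MRL/MpJ, but MRL/MpJ and AKR/N overlapped. Leydig cell markers followed another order, in which 4 of 6 were higher and none lower in MRL/MpJ and likewise in AKR/N, each against C57BL/6. They summed to 5663 and 5839 units in MRL/MpJ, 5591 and 6092 units in AKR/N, and 3553 and 3422 units in C57BL/6. Of 11 Sertoli cell markers, 4 were higher in AKR/N than in C57BL/6 and 3 were lower in MRL/MpJ than in AKR/N. Another comparison, MRL/MpJ against C57BL/6, had 1 higher. Of all tested probe sets, 5.07% were called higher and 4.95% lower in MRL/MpJ against C57BL/6. These shares were 5.09% and 4.88% in AKR/N against C57BL/6, and 3.22% and 3.69% in MRL/MpJ against AKR/N. The part of cell composition in the values of Exo1, Msh5 and the other members was not tested.

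The genes whose pattern over the 6 arrays came nearest to that of Exo1 (1418026_at), of 14476 other genes, were D2hgdh, 1700001L19Rik and Serhl. Nearness was the Euclidean distance between centred log2 values, 0.159, 0.2 and 0.223, and Pearson's r over the 6 arrays was 0.985, 0.984 and 0.993. D2hgdh, a mitochondrial dehydrogenase of D-2-hydroxyglutarate, stood at 93.0 and 113.6 units in MRL/MpJ, 211.2 and 196.3 units in AKR/N, and 170.4 and 143.3 units in C57BL/6. These genes were picked out for their likeness, and the 6 arrays fall into 3 strains.

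Msh5, which forms the meiotic MutS complex with Msh4, had its highest signal in MRL/MpJ on both of its probe sets. On 1430771_a_at it read 76.0 and 69.3 units in MRL/MpJ, 63.6 and 57.1 units in AKR/N, and 42.2 and 42.3 units in C57BL/6. The 3 strains did not overlap. The means were 72.7 ± 4.71 units in MRL/MpJ against 42.2 ± 0.0919 units in C57BL/6 (SD, n = 2 each), a log2 difference of 0.61 (SE 0.154, adjusted p = 0.0317). AKR/N, at 60.4 ± 4.58 units, differed from C57BL/6 by 0.39 (95% interval 0.05 to 0.73, adjusted p = 0.151). MRL/MpJ and AKR/N differed by 0.22 (95% interval -0.13 to 0.56, adjusted p = 0.502).

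The brighter Msh5 probe set, 1449537_at, showed a smaller step that was not called. It read 101 and 106 units in MRL/MpJ, 79.3 and 87.7 units in AKR/N, and 80.0 and 79.3 units in C57BL/6. MRL/MpJ was above both other strains without overlap, by 0.33 against C57BL/6 (SE 0.13, adjusted p = 0.154) and by 0.27 against AKR/N (SE 0.13, adjusted p = 0.282), and AKR/N and C57BL/6 overlapped. The mean of both probe sets gave 0.47 for MRL/MpJ against C57BL/6.

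The call on 1430771_a_at was lost whichever of the 6 arrays was left out. Dropping replicates 1 and 2 in turn gave adjusted p = 0.174 and 0.0998 for MRL/MpJ, 0.0525 and 0.051 for AKR/N, and 0.0839 and 0.0905 for C57BL/6. With a pseudocount of 64 the difference was 0.36. The 3 genes nearest in pattern to Msh5 were sought on its brighter probe set, 1449537_at, which was not called. They were Pcolce, Cs and Spats2 (distances 0.0746, 0.08 and 0.0871, Pearson's r 0.979, 0.976 and 0.986 over 6 arrays). These genes were picked out for their likeness, and likeness to the called probe set, where AKR/N lay between the other strains, was not examined. Cs, the citrate synthase of mitochondria, read 548.1 and 536.7 units in MRL/MpJ, 429.4 and 450.3 units in AKR/N, and 434.7 and 422.9 units in C57BL/6.

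Msh4, the partner of Msh5 in the same complex, showed no such step in MRL/MpJ. Its 1 probe set, 1419511_at, read 193.6 and 217 units in MRL/MpJ, 177 and 194 units in AKR/N, and 220.4 and 222 units in C57BL/6. Both MRL/MpJ arrays lay below both C57BL/6 arrays, a difference that was not called (-0.10, 95% interval -0.33 to 0.13, adjusted p = 0.618). AKR/N lay below C57BL/6 without overlap (-0.24, 95% interval -0.47 to -0.00, adjusted p = 0.205), and MRL/MpJ and AKR/N overlapped (0.14, adjusted p = 0.545). Whether the strain effects on Msh4 and Msh5 differ was not tested.

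Mlh3, the MutL protein of meiotic crossovers, was read by 1 probe set, 1426052_at. It stood at 163 and 152 units in MRL/MpJ, 133 and 129 units in AKR/N, and 137 and 116 units in C57BL/6. MRL/MpJ was above both other strains without overlap, but by 0.29 against C57BL/6 (SE 0.12, adjusted p = 0.171) and 0.24 against AKR/N (SE 0.12, adjusted p = 0.306), neither of which was called. AKR/N and C57BL/6 overlapped (0.05, 95% interval -0.22 to 0.32, adjusted p = 0.857).

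Pms2, the main MutL endonuclease of mismatch repair, gave different readings on its 2 tested probe sets. On 1423539_at it read 62.9 and 63.8 units in MRL/MpJ, 58.1 and 45.9 units in AKR/N, and 45.8 and 28.7 units in C57BL/6. MRL/MpJ was above C57BL/6 by 0.59 (SE 0.197, 95% interval 0.16 to 1.03, adjusted p = 0.0876), which was not called, although it was when C57BL/6 replicate 1 was left out (0.83, adjusted p = 0.0437); with C57BL/6 replicate 2 left out it was 0.36 (adjusted p = 0.344). On 1436273_at it read 46.0 and 42.1 units in MRL/MpJ, 43.7 and 45.1 units in AKR/N, and 32.0 and 62.9 units in C57BL/6. There the 2 C57BL/6 arrays lay on either side of all others, and MRL/MpJ differed from C57BL/6 by -0.03 (95% interval -0.54 to 0.47, adjusted p = 0.949). The mean of both probe sets was 0.28 for MRL/MpJ against C57BL/6. The third, 1432421_at, lay at 5.41 to 27.4 units, above the 40th percentile on 1 array, and was not tested.

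Neither MutS gene of mismatch repair was called. Msh6, which recognises single mismatches, read 241.7 and 237 units in MRL/MpJ, 206 and 210.2 units in AKR/N, and 255 and 237 units in C57BL/6 on 1416915_at. MRL/MpJ and C57BL/6 overlapped (-0.04, 95% interval -0.25 to 0.17, adjusted p = 0.851), while AKR/N lay below both. Its difference was -0.23 from C57BL/6 (SE 0.0957, adjusted p = 0.176), and MRL/MpJ exceeded AKR/N by 0.19 (adjusted p = 0.306), so no pair was called.

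Msh3, which recognises larger loops, had 3 tested probe sets and no call. The brightest, 1424166_at, read 201 and 192 units in MRL/MpJ, 177 and 189 units in AKR/N, and 179 and 172 units in C57BL/6, with MRL/MpJ above C57BL/6 by 0.15 (95% interval -0.08 to 0.38, adjusted p = 0.411). The other 2 tested probe sets, 1422261_a_at and 1446511_at, lay between 18.1 and 55.8 units and differed from C57BL/6 by 0.01 and 0.32 in MRL/MpJ (adjusted p = 0.991 and 0.444). The last, 1430643_at, stayed at 1.15 to 5.94 units and was not tested.

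**Figure D2:**
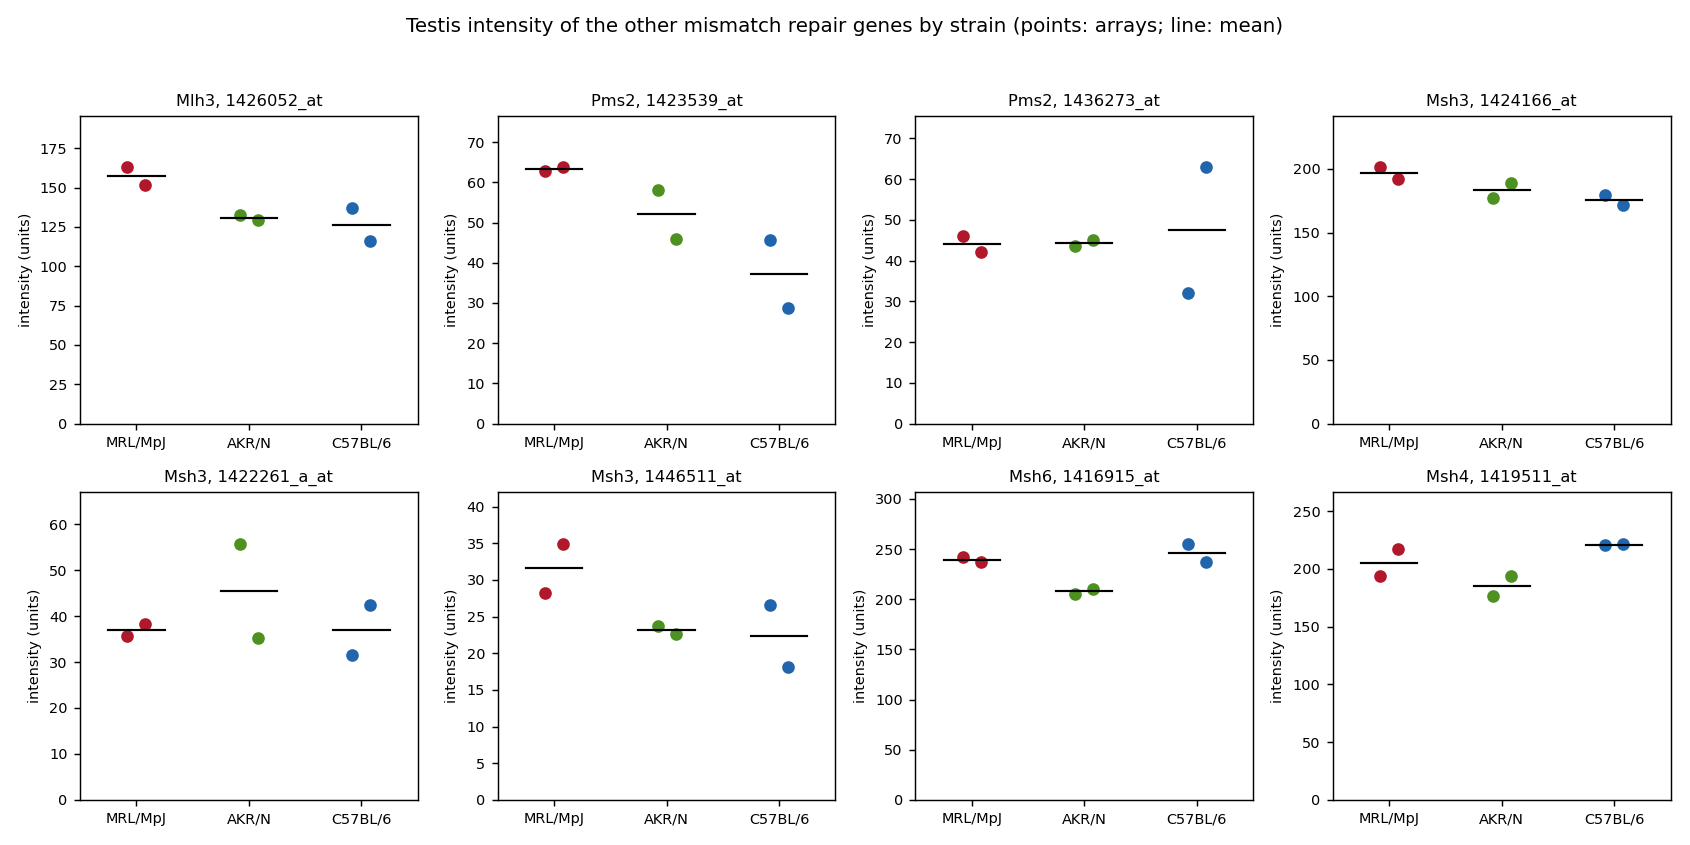
Intensity in linear units (y axis, from 0) of the 8 tested probe sets of Mlh3, Pms2, Msh3, Msh6 and Msh4 by strain (x axis). Points are single arrays and lines are strain means (n = 2). Mlh3 is highest in MRL/MpJ, at 163 and 152 units, Msh6 is lowest in AKR/N, and the C57BL/6 arrays of Pms2 on 1436273_at are far apart at 32.0 and 62.9 units.

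Counted over the 12 tested probe sets, calls were few in each comparison. In MRL/MpJ against C57BL/6, 1 probe set was called, higher (Msh5), where 10.0% of all tested probe sets were called, 5.07% higher and 4.95% lower. Of those calls 49.4% were lower, against 39.4% when arrays were centred on their medians, and 6 of the 12 had an unadjusted limma p under 0.05, against 24.3% of all. The 12 had a median difference of 0.0784, against 0.0133 over all tested probe sets, and a median size of 0.302 against 0.195. In AKR/N against C57BL/6 none was called, where 9.97% of all were (5.09% higher and 4.88% lower). Of those calls 49% were lower, against 39.8% with median centring, and 3 of the 12 had an unadjusted p under 0.05, against 23.8% of all. The median was 0.0566 against -0.00273 over all probe sets, and the median size 0.157 against 0.192. In MRL/MpJ against AKR/N, 1 was called, lower (Exo1), where 6.91% of all were (3.22% higher and 3.69% lower), and 2 had an unadjusted p under 0.05, against 20.3% of all. Here the median was 0.162 against 0.0152, and the median size 0.222 against 0.174. The shares called, 8.33%, 0% and 8.33%, rest on 12 probe sets of 7 genes. With the brightest tested probe set standing for each gene, 0 of the 7 genes were called in either comparison with C57BL/6. In MRL/MpJ against AKR/N, 1 was called (Exo1).

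The arrays of MRL/MpJ and C57BL/6 did not overlap for 9 of the 12, 6 higher and 3 lower in MRL/MpJ, where 52.1% of all tested probe sets did not overlap, 27.5% higher and 24.7% lower. Those of AKR/N and C57BL/6 did not overlap for 5, 3 higher and 2 lower, against 52.5% of all, 26.2% in each direction. Those of MRL/MpJ and AKR/N did not overlap for 9, 7 higher and 2 lower in MRL/MpJ, against 50.6% of all, 26.9% higher and 23.7% lower. The 3 comparisons share their arrays pairwise.

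**Figure D3:**
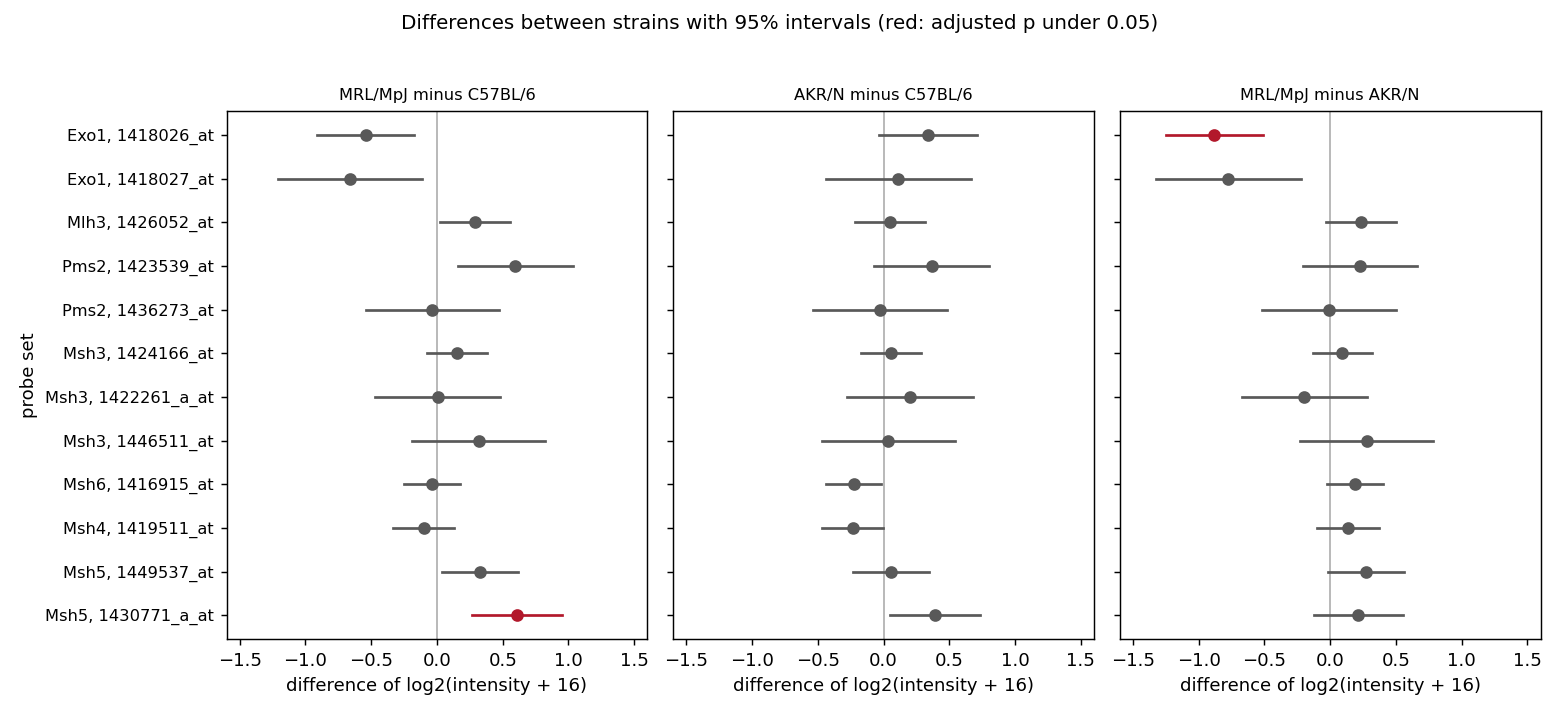
Differences of log2(intensity + 16) between strains (x axis) for the 12 tested probe sets (y axis), one panel per comparison. Points are estimates, bars are 95% intervals, and red marks an adjusted p under 0.05. Red are Msh5 (1430771_a_at, 0.61) in MRL/MpJ minus C57BL/6 and Exo1 (1418026_at, -0.88) in MRL/MpJ minus AKR/N.

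Other genes of mismatch repair, which supply the clamp, its loader and the polymerase, gave calls in all 3 comparisons. Of 18 genes listed, 15 had a tested probe set, and the brightest of each gene was counted. In AKR/N against C57BL/6, 4 were called lower and 1 higher, with a median of -0.103. Of all tested probe sets, 4.88% were called lower and 5.09% higher there. Pcna, the sliding clamp, read 1805 and 1848 units in AKR/N against 2629 and 2462 units in C57BL/6 (-0.47, SE 0.0624, adjusted p = 0.00082). Rfc2, a subunit of the clamp loader, read 1058 and 948.7 units in AKR/N against 1409 and 1440.1 units in C57BL/6 (-0.50, SE 0.075, adjusted p = 0.00191). Its other 2 tested probe sets differed by -0.08 and by 0.65, of which 0.65 was called higher (adjusted p = 0.0328).

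The large clamp loader subunit Rfc1 (-0.38, adjusted p = 0.0158) and Rpa1, which coats single-stranded DNA (-0.35, adjusted p = 0.0468), were also lower in AKR/N. The other probe sets of Rfc1 (-0.29 and -0.15, adjusted p = 0.102 and 0.637) and of Rpa1 (-0.26, adjusted p = 0.0614) were not called. Pold3, a subunit of DNA polymerase delta, was higher (0.36, adjusted p = 0.0334), while its other 2 probe sets differed by -0.30 and -0.18. The calls on Rfc1, Rpa1 and Pold3 were each lost when AKR/N replicate 1 was left out (adjusted p = 0.113, 0.323 and 0.129) or C57BL/6 replicate 2 (0.0988, 0.234 and 0.193). Dropping AKR/N replicate 2 gave 0.067 for Rfc1 and 0.171 for Pold3, and dropping C57BL/6 replicate 1 gave 0.0874 for Rpa1.

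In MRL/MpJ against C57BL/6, 2 of the 15 were called lower and none higher, with a median of -0.0444. Of all tested probe sets, 4.95% were called lower and 5.07% higher there. Rfc2 read 960.9 and 1017 units in MRL/MpJ against 1409 and 1440.1 units in C57BL/6 (-0.52, SE 0.075, adjusted p = 0.00153), and its other 2 probe sets differed by -0.31 and -0.01, neither called. Pcna differed by -0.28 (adjusted p = 0.0184). That became 0.101 and 0.0702 when MRL/MpJ replicates 1 and 2 were dropped in turn, and 0.0978 when C57BL/6 replicate 1 was. Summed, the 5 proliferation markers other than Pcna did not share its order. They stood at 3056 and 3097 units in MRL/MpJ, 3061 and 3034 units in AKR/N, and 3004 and 2939 units in C57BL/6. Of these 5, Mki67 alone was called, lower in AKR/N than in C57BL/6 (-0.46, adjusted p = 0.0191), as Pcna was. Mki67 was also called higher in MRL/MpJ than in AKR/N (0.45, adjusted p = 0.0283). The part of proliferation in the Pcna values was not tested. In MRL/MpJ against AKR/N, Rfc1 was the 1 gene of the 15 called on its brightest probe set (0.34, adjusted p = 0.0375). Of all tested probe sets, 3.22% were called higher there. The other 2 probe sets of Rfc1 were not called (0.31, adjusted p = 0.0957, and 0.38, adjusted p = 0.221). A dimmer probe set of Rfc2 was called lower there (-0.66, adjusted p = 0.0407), but not its other 2 (-0.02 and -0.23). The Rfc1 call was lost whichever of the 4 arrays compared was dropped, at 0.2 and 0.115 for MRL/MpJ replicates 1 and 2, and 0.198 and 0.132 for AKR/N replicates 1 and 2.

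Among genes of meiotic crossover formation and junction processing, 12 of 17 had a tested probe set. One of them, Cntd1, a cyclin-like protein that mouse spermatocytes need to mature crossover sites marked by Msh4 and Msh5, was called. It read 849.7 and 925.8 units in MRL/MpJ, 1150.4 and 1329.9 units in AKR/N, and 1265 and 1281 units in C57BL/6. Both MRL/MpJ arrays lay below all others, as did the summed round spermatid markers, whose part in the Cntd1 values was not tested. MRL/MpJ was lower than C57BL/6 by a log2 difference of -0.51 (SE 0.083, adjusted p = 0.00301) and lower than AKR/N by -0.47 (SE 0.083, adjusted p = 0.00714). Its other 2 probe sets were called too, at -0.46 and -0.35 against C57BL/6 and -0.47 and -0.43 against AKR/N. Of all tested probe sets, 4.95% were called lower in MRL/MpJ than in C57BL/6 and 3.69% lower than in AKR/N.

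The Cntd1 call against C57BL/6 held without each array in turn, while that against AKR/N was lost when MRL/MpJ replicate 1 (adjusted p = 0.0632) or AKR/N replicate 2 (0.0857) was dropped. AKR/N and C57BL/6 differed by -0.04 (adjusted p = 0.826). Other probe sets of the remaining 11 crossover genes are not described here. On the brightest probe set of each, none of those 11 was called in any comparison. None of the 12 was called in AKR/N against C57BL/6. There 9.97% of all tested probe sets were called. Limma gave 1 of the 12 an unadjusted p under 0.05 there, against 23.8% of all. Without the variance trend no gene of either partner list was called in any comparison, with adjusted p = 0.0836 for Cntd1 and 0.0669 for Rfc2 in MRL/MpJ against C57BL/6, and 0.0683 for Pcna in AKR/N against C57BL/6. In that comparison the 2 genes with the highest signal were Cntd1 and Slx4, a scaffold of junction nucleases. Slx4 read 436.8 and 511.5 units in AKR/N against 535.6 and 662.4 units in C57BL/6, below both without overlap (-0.32, adjusted p = 0.0988).

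**Figure D4:**
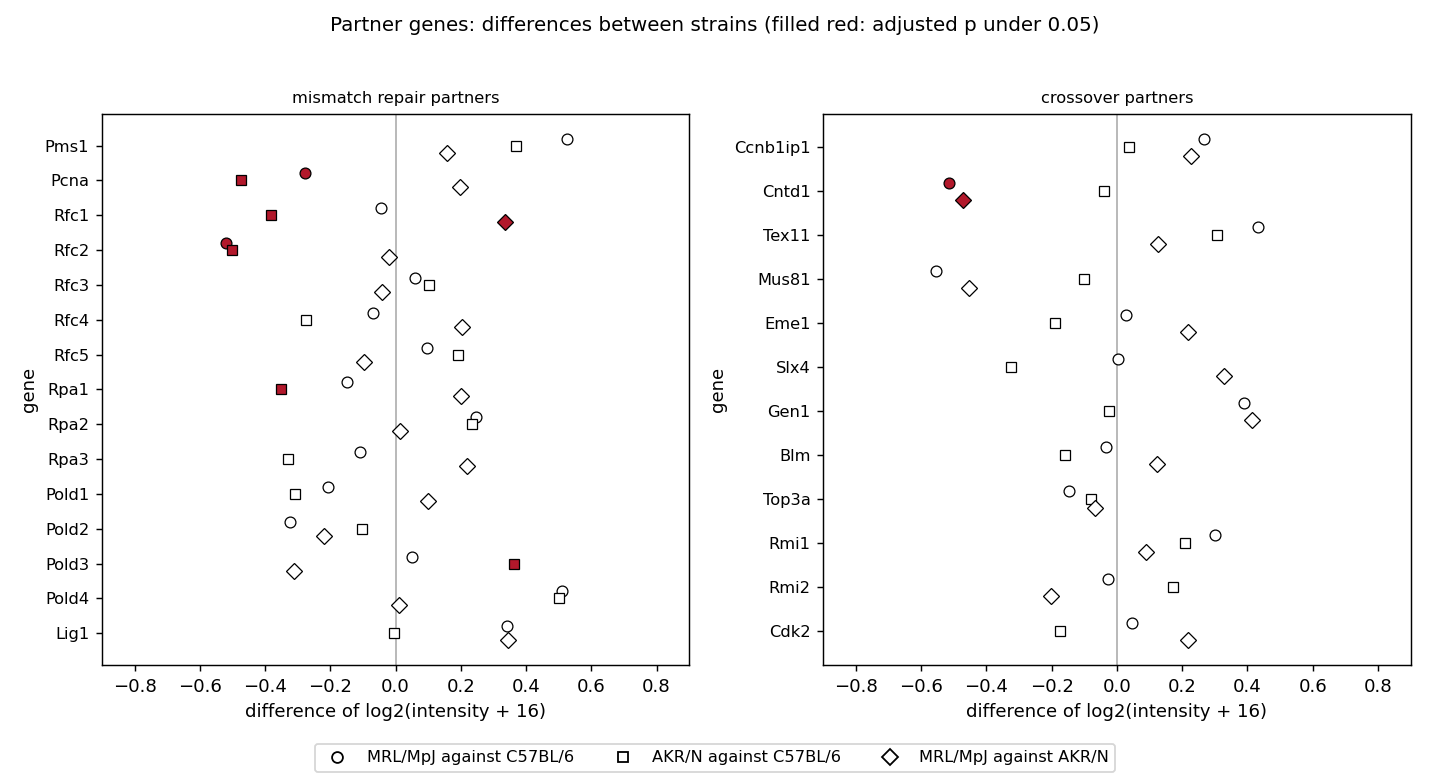
Differences of log2(intensity + 16) between strains (x axis) for 15 mismatch repair partners (left) and 12 crossover partners (right), with genes on the y axis. Symbols give the comparison and filled red symbols an adjusted p under 0.05. Cntd1 is red in both comparisons of MRL/MpJ, at -0.51 and -0.47, and Pcna and Rfc2 in both comparisons with C57BL/6.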

How the data were processed

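The deposited table holds 1 linear intensity per probe set and array. With 2% trimmed from both tails, every array of the deposited intensity values averages 125.001 units. How the authors summarised probes is not given in the sources used here. Trizol extraction and biotin labelling are stated per the labels' protocols. Intensities were transformed as log2(intensity + 16). Of 45101 probe sets, 64 controls were left out, and 29692 with at least 2 of 6 arrays above the 40th percentile of their array were tested. Strain means were fitted to all 6 arrays in limma 3.58.1 (R 4.3.3; lmFit, contrasts.fit, eBayes with a trend), with 3 residual degrees of freedom. The steps were tested on simulated data.

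Gene names are those of the platform annotation. Where 1 value per gene was needed, the brightest tested probe set was used. All probe sets of the members are described. Partner genes are named where called, at most 5 per comparison, and the 2 brightest where none was called. The members and lists were chosen with earlier results of these data known. Replicate numbers come from the labels; same-numbered arrays deviated together at r = 0.0425 to 0.0493 between strains, so the numbers were not taken as pairs. Strain sequence differences under the probes were not examined. Alternatives were other normalizations, filters, pseudocounts, variance models, arrays and a replicate block.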

Additional observations from a re-analysis of the deposited data

How the results depend on the processing

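Of the 12 tested members, none was called in AKR/N against C57BL/6 under any alternative. The 1 member call in MRL/MpJ against C57BL/6 (Msh5) became 0 without the filter on dim probe sets (adjusted p = 0.0738) and with only the arrays compared (0.053). With single arrays left out the count ran from 0 to 1, where the 1 was Pms2 or Exo1 and not Msh5. The 1 member call in MRL/MpJ against AKR/N (Exo1) became 0 without the variance trend (adjusted p = 0.0642), and ran from 0 to 1 with single arrays left out. Over all probe sets, the counts of 2975, 2960 and 2052 for MRL/MpJ against C57BL/6, AKR/N against C57BL/6 and MRL/MpJ against AKR/N became 1212, 1138 and 421 without the variance trend. The third became 1327 without the filter. With single arrays left out they ran from 1483 to 2545, 1290 to 2607 and 694 to 2191. Median centring put the lower share of calls in MRL/MpJ against C57BL/6 at 39.4%, against 49.4% as reported, and in AKR/N against C57BL/6 at 39.8%, against 49%. The cause was not tested. With the replicate number as a block the counts were 3510, 3492 and 2549, and the member calls stayed at 1, 0 and 1.

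Only uncalled differences changed sign. Under median centring these were Pms2 1436273_at in MRL/MpJ (0.0114) and AKR/N (0.0157) and Msh6 in MRL/MpJ (0.00768), each against C57BL/6. With 1 array left out, MRL/MpJ against C57BL/6 ran from -0.394 to 0.324 for Pms2 1436273_at (0.0122 in between), from -0.144 to 0.155 for Msh3 1422261_a_at (-0.0304 in between) and from -0.0879 to 0.0107 for Msh6. AKR/N against C57BL/6 ran from -0.0417 to 0.445 for Msh3 1422261_a_at, -0.188 to 0.412 for Exo1 1418027_at, -0.0053 to 0.117 for Msh5 1449537_at, -0.0568 to 0.157 for Mlh3, -0.386 to 0.332 for Pms2 1436273_at and -0.122 to 0.198 for Msh3 1446511_at. MRL/MpJ against AKR/N ran from -0.0553 to 0.0389 for Pms2 1436273_at (0.00885 in between) and -0.439 to 0.0473 for Msh3 1422261_a_at. The counts of called partners, by alternatives added after seeing the data, ran from 0 to 3, 0 to 5 and 0 to 2 for mismatch repair and 0 to 2, 0 to 1 and 0 to 2 for crossover genes, in the same order of comparisons. Several members lay under 60 units, where 2 arrays per strain limit the precision.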

Other observations

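The neighbours of Exo1 and Msh5 in RefSeq gene order (mouse assembly GRCm38.p6), the 3 nearest tested genes on each side, were looked up after the values of both genes were seen. Around Exo1 on chromosome 1, 2 of 6 neighbours had an unadjusted limma p under 0.05 in MRL/MpJ against C57BL/6, 3 in AKR/N against C57BL/6 and 3 in MRL/MpJ against AKR/N, where 24.3%, 23.8% and 20.3% of all tested probe sets did. The 1 call was Zbtb18, a zinc finger repressor, which was higher in MRL/MpJ than in C57BL/6 (0.43, SE 0.0859, adjusted p = 0.0101). Wdr64, the nearest tested gene before Exo1, read 944.6 and 967.4 units in MRL/MpJ, 1151 and 1143 units in AKR/N, and 1130 and 1042 units in C57BL/6. Like Exo1 it was lowest on both MRL/MpJ arrays, without overlap, but was not called (-0.26 against AKR/N, adjusted p = 0.0537, and -0.18 against C57BL/6, adjusted p = 0.143). Cep170, the nearest tested gene after Exo1, differed by 0.43 in MRL/MpJ against AKR/N (adjusted p = 0.243).

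Around Msh5 on chromosome 17, none of the 6 neighbours was called by limma in any of the 3 comparisons, and 3 had an unadjusted p under 0.05 in MRL/MpJ against C57BL/6, 1 in AKR/N against C57BL/6 and 1 in MRL/MpJ against AKR/N. Clic1, an intracellular chloride channel protein next to Msh5, read 361.1 and 361.8 units in MRL/MpJ, 370.8 and 363.1 units in AKR/N, and 268 and 321.2 units in C57BL/6. It differed from C57BL/6 by 0.29 in MRL/MpJ (adjusted p = 0.102) and by 0.31 in AKR/N (adjusted p = 0.0829), and between MRL/MpJ and AKR/N by -0.02 (adjusted p = 0.946). Sapcd1, on the other side of Msh5, lay at 6.76 to 42.2 units and differed by -0.24 in MRL/MpJ against C57BL/6 (adjusted p = 0.741).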
